A study of Mus musculus with 7 samples.

Results

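The CD8 T cells described here are 661 of 23938 cells kept from 7 single-cell libraries of mouse atypical teratoid rhabdoid tumours, a childhood brain tumour that lacks the chromatin remodelling subunit SMARCB1. They were chosen by raw UMIs (unique molecular identifiers, each counting 1 captured mRNA molecule). A cell had to carry at least 500 UMIs, at least 200 genes and at most 20% mitochondrial UMIs, at least 1 UMI of Cd3d, Cd3e or Cd3g, and at least 1 of Cd8a or Cd8b1. It had to have 0 UMIs of Cd4, Foxp3, C1qa, C1qb and C1qc, and not to carry Mki67 and Top2a together. The tables held 24433 barcodes, and the series text gives 24199 cells after the submitters' own quality filter.

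All tumours arose in Rosa26-creERT2::Smarcb1 fl/fl mice after a single 50 mg/kg dose of tamoxifen to the pregnant dam at 6.5 days post-coitum. The Rosa26 promoter that drives the Cre is ubiquitous, so host cells outside the tumour can carry the deletion too. The labels name 2 subgroups. MYC comprised 5 libraries of 4 animals: basal cerebrum at 12 weeks (MYC replicate 1), trigeminal nerve and lateral cerebellum of 1 animal at 19 weeks (MYC replicates 2 and 3, summed here), trigeminal nerve at 21 weeks (MYC replicate 4) and basal cerebrum at 27 weeks (MYC replicate 5). SHH comprised 2 animals with tumours of the striatum and subventricular zone, at 14 weeks (SHH replicate 1) and 16 weeks (SHH replicate 2). Subgroup and site cannot be told apart, no mouse without the deletion was among the samples, and the libraries of MYC replicate 5 and SHH replicate 1 were sequenced at 2 time points.

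CD8 T cells recognise peptides on MHC class I molecules through the T cell receptor and its CD3 signalling chains, with the CD8 alpha and beta chains as co-receptor. Activated cells kill with granules that hold perforin and granzymes, secrete interferon gamma and chemokines such as CCL5 and XCL1, and after prolonged stimulation carry inhibitory receptors such as PD-1. In the brain, CD8 T cells that have left the circulation often carry residence genes such as Cxcr6 and Itgae.

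The number of CD8 T cells per library was 16, 14, 21, 269 and 110 in MYC replicates 1 to 5, and 166 and 65 in SHH replicates 1 and 2. Together they held 1612041 UMIs. The median per cell was 1554 UMIs, and it ranged from 1215 in SHH replicate 1 to 4664.5 in MYC replicate 5. Of 1230 cells with Cd3 and Cd8 UMIs, 495 also carried C1q, 54 Cd4 and 56 Foxp3, and these groups overlap. At the threshold, 218 members had a single Cd8 UMI and 158 had 2. Across all kept cells, 218 barcodes occurred in 2 or more libraries. Among the members 19 cells had such a barcode, and 1 barcode was a member in 2 libraries. Scrublet scored the 6 libraries with 200 or more kept cells. The highest scores of each, a preset 0.8% per 1000 kept cells, were marked as likely doublets, 18 members among them. The number marked thus followed library size, with 1861 of 15253 kept cells in MYC replicate 5 and 1 of 346 in MYC replicate 1. Of the 18 members, 9 were in MYC replicate 5. Smarcb1 itself lay at 0 to 57.5 UMIs per 1000000 UMIs (counts per 1000000, CPM) in the summed cells. That is no check of the deletion, since the part of the transcript that was counted may lie outside the deleted part.

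The marker genes bore out the label in 6 of the 7 libraries. In the cells of MYC replicate 5 they did not. Cd3e, Cd8a and Cd8b1 belong to the gate and do not check it. Nkg7, a granule membrane protein of cytotoxic lymphocytes that the gate did not use, had a UMI in 85.7% to 95.2% of members in the 6 other libraries and in 25.5% in MYC replicate 5. These shares are over all members at their full depth. After each cell was thinned to 1000 UMIs the share was 16.4% in MYC replicate 5 and 80.6% to 93% in the 5 other animals, compared with 0% to 2.65% of C1q-positive macrophages. The summed Nkg7 level was 3285 CPM in MYC replicate 1, 3006 in MYC replicates 2 and 3, 2289 in MYC replicate 4, 180.4 in MYC replicate 5, 3721 in SHH replicate 1 and 3019 in SHH replicate 2. For Gzmk, granzyme K, the levels were 64.7 CPM in MYC replicate 1, 404 in MYC replicates 2 and 3, 95.1 in MYC replicate 4, 4.92 in MYC replicate 5, 148 in SHH replicate 1 and 244 in SHH replicate 2. The MYC replicate 5 cells were the lowest of the 6 animals for both genes.

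The T cell genes Ms4a4b and Gimap4 were also lowest in MYC replicate 5. Ms4a4b, a membrane protein of T cells, lay at 217 CPM against 1697 to 2315, and the lymphocyte GTPase Gimap4 at 32.8 against 280.4 to 617. The cells also carried RNA that tumour or stromal cells make: Cryab, a small heat shock protein, lay at 1273 CPM and Sparc, a matrix protein, at 859. Cryab was at most 38.8 and Sparc at most 179.7 CPM elsewhere. The cells of MYC replicate 5 are therefore CD8-gated cells rather than marker-supported CD8 T cells. Comparisons that include them are also given without them where enough animals were left for a fit.

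**Figure D1:**
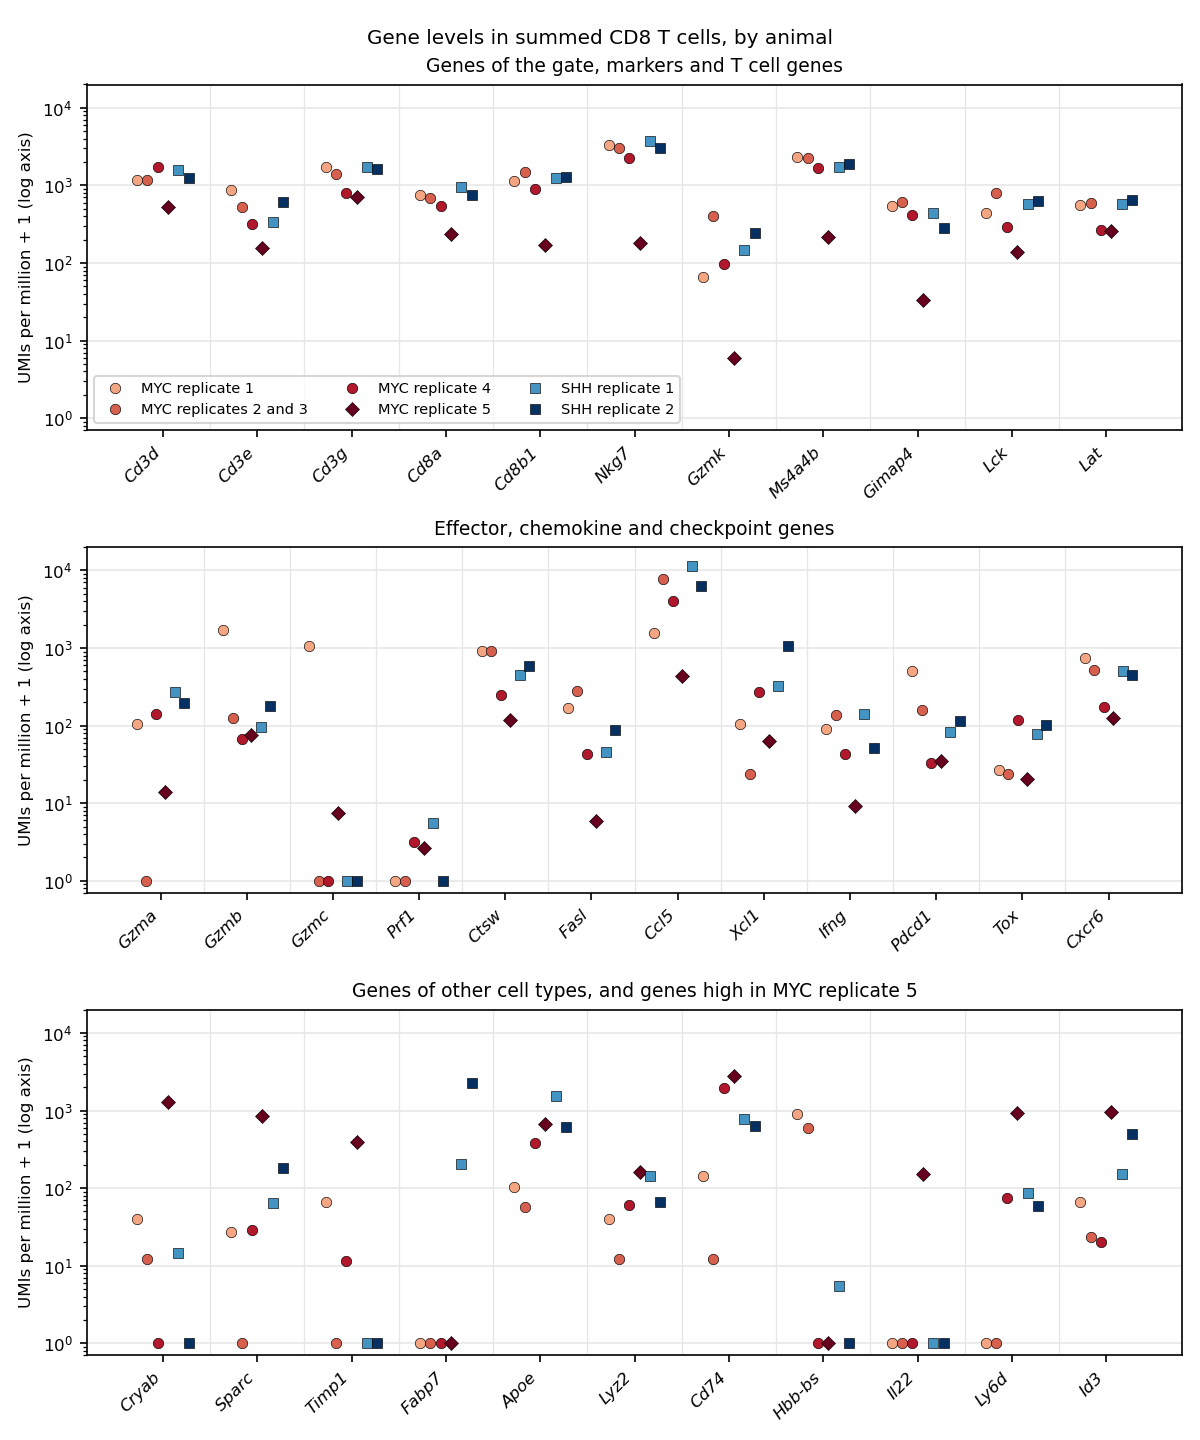
Levels in summed CD8 T cells as CPM plus 1 on a log axis, 1 point per animal, circles and diamonds for MYC and squares for SHH. MYC replicate 5 (diamond) is lowest for Nkg7, Gzmk, Ms4a4b and Gimap4 and highest for Cryab, Sparc, Timp1, Il22 and Ly6d; Gzmb and Gzmc are highest in MYC replicate 1.

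Il22, a cytokine made by some T cells and innate lymphoid cells, was detected among the members only in MYC replicate 5, with 93 UMIs in 32 of 110 cells and a level of 153 CPM. The other 5 animals had 0 UMIs. A count of 0 allows up to 3 counts, that is 38.8 CPM in MYC replicate 1 and at most 33.6 CPM in the other 4. Ly6d lay at 927 and Id3, a repressor of E-protein transcription factors, at 966 CPM in MYC replicate 5. Elsewhere the highest Ly6d was 85 and the highest Id3 496 CPM. In C1q macrophages of MYC replicate 5, which should lack it, Il22 had a UMI in 0.0563% of cells thinned to 1000 UMIs, compared with 14.5% of its members.

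Genes of the cytotoxic programme were uneven. Perforin (Prf1), the pore-forming granule protein, was nearly undetected: it lay between 0 and 4.47 CPM in all 6 animals, below the 3-count floor of every sum. Ctsw, cathepsin W of cytotoxic lymphocytes, was detected in every animal at 918 CPM in MYC replicate 1, 908 in MYC replicates 2 and 3, 245 in MYC replicate 4, 118 in MYC replicate 5, 447 in SHH replicate 1 and 589 in SHH replicate 2. Gzma lay between 0 CPM in MYC replicates 2 and 3 and 273 CPM in SHH replicate 1. Fasl, the ligand of the death receptor Fas, was lowest in MYC replicate 5 at 4.92 CPM and highest in MYC replicates 2 and 3 at 280.4 CPM.

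Granzyme B (Gzmb), the main apoptosis-inducing granzyme, stood apart in 1 animal. It lay at 1707 CPM in MYC replicate 1, 123 in MYC replicates 2 and 3, 65.5 in MYC replicate 4, 73.8 in MYC replicate 5, 93.9 in SHH replicate 1 and 179.7 in SHH replicate 2. In MYC replicate 1 it was found in 9 of 16 cells, with 42 UMIs in the highest cell and 67.4% of its UMIs in the top 3 cells. Gzmc, a neighbouring granzyme gene, lay at 1073 CPM in the same animal and between 0 and 6.56 CPM elsewhere. MYC replicate 1 was also highest for Pdcd1, Klrc1 and Ly6c2, at 504, 595 and 2909.7 CPM. These values rest on 16 cells.

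After each cell was thinned to 1000 UMIs, so that depth no longer differed, Gzmb had a UMI in 50% of members in MYC replicate 1 (unthinned 56.2%) and in 3.63% to 11.4% in the other animals. In the macrophages the thinned Gzmb share was 0% to 0.338%, at median depths of 2330 to 5628 UMIs. Gzmk was detected in 10.1% to 28.6% of thinned members outside MYC replicate 5, in 0.909% there, and in 0% of macrophages. Of 491 thinned members outside MYC replicate 5, 63 carried Gzmk and 33 carried Gzmb, and 7 carried both.

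Ccl5 was more abundant than Nkg7 in 5 of 6 animals, all but MYC replicate 1. Ccl5, which recruits T cells and myeloid cells, lay at 1552 CPM in MYC replicate 1, 7693 in MYC replicates 2 and 3, 4083 in MYC replicate 4, 439.6 in MYC replicate 5, 11284 in SHH replicate 1 and 6239.8 in SHH replicate 2. Xcl1, the ligand of the dendritic cell receptor XCR1, lay at 103 CPM in MYC replicate 1, 22.4 in MYC replicates 2 and 3, 266 in MYC replicate 4, 62.3 in MYC replicate 5, 326 in SHH replicate 1 and 1049.5 in SHH replicate 2. SHH replicate 2 was the highest for Xcl1, with 67.8% of its 146 UMIs in 3 of 65 cells. Xcr1 itself was at 0 in the members of every animal. In the thinned cells outside MYC replicate 5, 68.7% of the 418 cells with an Nkg7 UMI and 28.8% of those without one carried Ccl5. The share was higher with Nkg7 in 4 of these 5 animals, and in MYC replicate 1 it was 30.8% with and 33.3% without. Ifng, interferon gamma, ranged from 8.2 CPM in MYC replicate 5 to 139 in SHH replicate 1.

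Inhibitory receptors were sparse outside MYC replicate 1. Pdcd1, which encodes PD-1, lay at 504 CPM in MYC replicate 1, 157 in MYC replicates 2 and 3, 31.7 in MYC replicate 4, 34.4 in MYC replicate 5, 80.5 in SHH replicate 1 and 115 in SHH replicate 2. Lag3 lay between 19.7 and 129 CPM. Havcr2, which encodes TIM-3, was at 0 in MYC replicates 2 and 3 and in both SHH animals and reached 64.7 CPM in MYC replicate 1. Tox, a transcription factor of persistently stimulated CD8 T cells, lay at 116 CPM in MYC replicate 4 and between 19.7 and 25.9 in the 3 other MYC animals. SHH replicates 1 and 2 had Tox levels of 76 and 101 CPM. The thinned share of members with a Pdcd1 UMI was 31.2% in MYC replicate 1 and 2.82% to 11.4% elsewhere, beside 0% to 6.9% in macrophages. The Pdcd1 shares of SHH replicates 1 and 2, 6.98% and 4.76%, lay close to those of their macrophages (6.9% and 3.54%) and cannot be told from background.

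Transcripts of the naive and memory genes Ccr7 and Tcf7 were scarce. Ccr7, a chemokine receptor for homing to lymph nodes, lay between 0 CPM and 134 CPM. Tcf7, a transcription factor of naive and stem-like T cells, lay between 12.9 CPM in MYC replicate 1 and 135 CPM in MYC replicate 4. Cxcr6, a chemokine receptor of tissue T cells, was more abundant than both in every animal but MYC replicate 5, at 737 CPM in MYC replicate 1, 516 in MYC replicates 2 and 3, 173 in MYC replicate 4, 125 in MYC replicate 5, 509.9 in SHH replicate 1 and 453 in SHH replicate 2. These levels are of 3′ end counts, which do not scale with transcript length. Of cells thinned to 1000 UMIs, 12.7% (MYC replicate 5) to 81.2% (MYC replicate 1) had a Cxcr6 UMI, compared with at most 0.113% of macrophages. Il7r, the interleukin 7 receptor and also a naive and memory gene, was less scarce. Of 491 thinned members outside MYC replicate 5, 101 carried Il7r, 67 Tcf7 and 130 Cxcr6. In MYC replicate 4, 65 of 248 carried Il7r, 39 Tcf7 and 38 Cxcr6. Itgae, the integrin chain CD103, lay between 0 and 89.5 CPM.

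The share of CD8 T cells among all kept cells was compared to ask whether the subgroups differed in how many were captured. It was 4.62% in MYC replicate 1, 5.57% in MYC replicates 2 and 3, 11.9% in MYC replicate 4, 0.721% in MYC replicate 5, 4.45% in SHH replicate 1 and 3.81% in SHH replicate 2. MYC replicate 4 was the highest and MYC replicate 5 the lowest, so both SHH animals lay inside the range of MYC. The means were 5.69% ± 4.61 (SD, n = 4) in MYC and 4.13% ± 0.45 (SD, n = 2) in SHH. The difference of 1.57 percentage points was smaller than the spread between animals (exact two-sided permutation test, p = 0.667, adjusted p = 0.667 over 3 shares). It was -0.487 without MYC replicate 4 and 3.22 without MYC replicate 5. Shares depend on how each tumour was dissociated, and on the gate. Of cells with Cd3 and Cd8 UMIs, 270 of 415 in MYC replicate 5 and 194 of 365 in SHH replicate 1 carried C1q. The counts were 13 of 312 in MYC replicate 4, 11 of 77 in SHH replicate 2 and 4 of 21 in MYC replicate 1. In MYC replicates 2 and 3 as single libraries they were 0 of 14 and 3 of 26. The part of this exclusion in the shares was not tested.

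CD8 T cells outnumbered conventional CD4 T cells, taken as Cd3-positive cells with a Cd4 UMI and no Cd8, Foxp3 or C1q UMI, in each of the 6 animals, with the CD8-gated cells counted in MYC replicate 5. Their share of both classes together was 80.0% in MYC replicate 1, 100% in MYC replicates 2 and 3, 71.4% in MYC replicate 4, 82.1% in MYC replicate 5, 89.2% in SHH replicate 1 and 92.9% in SHH replicate 2. The MYC animals spread on both sides of the SHH animals. The means of 83.4% ± 12.0 (SD, n = 4) and 91.1% ± 2.55 (SD, n = 2) differed by -7.69 percentage points (-7.27 without MYC replicate 5; exact two-sided permutation test, p = 0.4, adjusted p = 0.6). With 15 splits the smallest p this design can give is 0.0667. Of 2590 cells with a Cd3 UMI and no C1q UMI, 661 were in the CD8 and 161 in the CD4 class. Most such cells were thus in neither. The CD8 gate took a UMI of Cd8a or Cd8b1, and the CD4 gate needed one of Cd4. The part of the gates in these shares was not tested.

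Cycling cells, which passed the CD8 gate but carried Mki67 and Top2a together, numbered 21. They made up 2.78% of CD8-gated cells in MYC replicates 2 and 3, 2.18% in MYC replicate 4, 8.33% in MYC replicate 5, 1.78% in SHH replicate 1 and 1.52% in SHH replicate 2. MYC replicate 5 was the highest, and its CD8-gated cells were also the deepest. MYC replicate 1 had 0 of 16 and did not enter the test. The difference of 2.79 percentage points (exact two-sided permutation test, 10 splits, smallest possible p 0.1, p = 0.4, adjusted p = 0.6) turned to -0.323 when cells were thinned to 1000 UMIs before gating, and was 0.835 without MYC replicate 5.

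**Figure D2:**
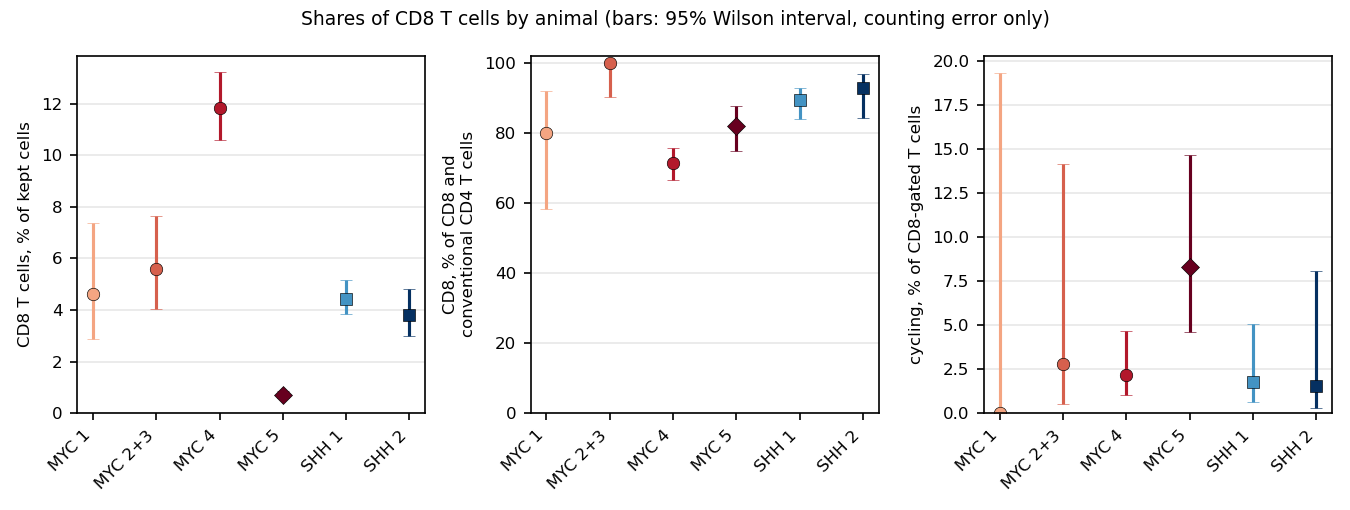
Shares in percent for the 6 animals (circles and diamonds MYC, squares SHH) with 95% Wilson intervals that cover counting error only. MYC replicate 4 has the highest share of kept cells at 11.9% and MYC replicate 5 the lowest at 0.721%; cycling cells are most frequent in MYC replicate 5 at 8.33%.

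CD8 T cells were then compared with conventional CD4 T cells of the same animals, to describe which genes set them apart beyond the co-receptors. The CD8 sum of MYC replicate 5 holds its CD8-gated cells. MYC replicate 4, MYC replicate 5 and SHH replicate 1 had 20 or more cells of both classes. The cytotoxic genes Nkg7 and Klrd1 and the chemokines Ccl5 and Xcl1 were higher in CD8 T cells, and the TNF receptor family members Tnfrsf4, Tnfrsf18 and Tnfrsf9 were lower. By edgeR's quasi-likelihood test with the animal as a block, 15 of 3546 genes differed at an adjusted p of 0.05 (0.423%), 6 higher (0.169%) and 9 lower (0.254%). The genes of the gate were left out of these counts. DESeq2 called 12. Without the block edgeR called 0, with 50 at an unadjusted p under 0.05. The CD4 sums are small, with 108, 24 and 20 cells. The 13 macrophage markers summed to 3618 against 10103 CPM in MYC replicate 4, 5073 against 6843 in MYC replicate 5 and 3457 against 3389 in SHH replicate 1, with the 3 C1q genes at 0 by the gate. Their part in the differences was not tested.

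Nkg7 was higher in the CD8 sum of 3 of 3 animals, with 2289 CPM against 390.4 in MYC replicate 4, 180.4 against 56.6 in MYC replicate 5 and 3721 against 703 in SHH replicate 1. The log2 fold change was 2.50 ± 0.22 (SE; edgeR adjusted p = 1.40e-05). Over the alternatives it ranged from 2.33 to 2.70, with adjusted p from 1.97e-27 to 0.999. Xcl1 was higher by 4.34 ± 0.48 on the log2 scale (SE; edgeR adjusted p = 2.53e-04, 6.91e-13 to 0.522 over the alternatives), at 266 CPM against 13 in MYC replicate 4, 62.3 against 0 in MYC replicate 5 and 326 against 32 in SHH replicate 1. CD4 T cells had little Xcl1 in all 3 animals.

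Ccl5 was higher in CD8 T cells at 4083 CPM against 898 in MYC replicate 4, 439.6 against 194 in MYC replicate 5 and 11284 against 384 in SHH replicate 1. Its edgeR log2 fold change was 2.74 ± 0.43 (adjusted p = 0.00629; 1.16e-54 to 0.999 over the alternatives, passing 9 of 12). The Ccl5 gap was widest in SHH replicate 1 and narrowest in MYC replicate 5. Klrd1, the CD94 chain of natural killer receptors, and Ly6c2, a surface protein of memory and effector CD8 T cells, were higher by 2.52 ± 0.43 and 2.82 ± 0.46 in log2 terms, each in 3 of 3 animals (edgeR adjusted p = 0.0103 and 0.00748). Klrd1 passed in 8 of 12 and Ly6c2 in 11 of 12 of the fits. Meg3, a long non-coding RNA, also passed, but it was higher in only 2 of 3 animals and lay at 1342 CPM in the CD8 cells of MYC replicate 5, where the tumour-type transcripts were also high. Their part in that result was not tested.

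Among the genes lower in CD8 T cells was Tnfrsf4, which encodes the costimulatory receptor OX40 and had the largest fall. It lay at 61.3 CPM against 495 in MYC replicate 4, 103 against 946 in MYC replicate 5 and 71.6 against 671 in SHH replicate 1, so that no CD8 value reached a CD4 value. Its edgeR log2 fold change was -3.02 ± 0.22 (adjusted p = 2.37e-06), and over the alternatives the change ranged from -3.27 to -2.83 with adjusted p from 1.75e-29 to 0.0519. Tnfrsf18, which encodes GITR, had a log2 fold change of -1.80 ± 0.21, Tnfrsf9, which encodes 4-1BB, of -2.34 ± 0.33 and Tnfsf8, the CD30 ligand, of -2.64 ± 0.35, each lower in CD8 T cells of 3 of 3 animals. The direction was the same in 3 of 3 animals for 28.4% of all genes tested. Their edgeR adjusted p-values were 3.24e-04, 0.00187 and 0.00158. Sdf4, a calcium-binding protein, was lower as well (log2 fold change -1.54 ± 0.21). The annotation places it 233 bases from Tnfrsf4 on chromosome 4, and whether reads of one were counted in the other was not tested.

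The transcription factors Ikzf2, known from regulatory T cells, and Gata3, a factor of T helper cells, were lower, with log2 fold changes of -1.44 ± 0.23 and -1.71 ± 0.34 (edgeR adjusted p = 0.00629 and 0.0378). Izumo1r, the folate receptor 4 of regulatory and follicular CD4 T cells, had a log2 fold change of -1.97 ± 0.38 (adjusted p = 0.0297). Tff1, a secreted trefoil peptide, had one of -2.68 ± 0.37 (adjusted p = 0.00176). The CD4 gate removed cells with a Foxp3 UMI. Whether regulatory cells without a captured Foxp3 UMI contributed was not tested.

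By list, 3 of 11 measured costimulation genes were lower (Tnfrsf4, Tnfrsf18 and Tnfrsf9), with a median log2 fold change of -0.69 against 0.04 over all genes. Of 6 CD4 helper genes measured, 3 were lower, with a median of -1.81. Among chemokines 2 of 4 were higher, Ccl5 and Xcl1, with a median of 2.06, and among cytotoxic genes 2 of 11 were higher, with a median of 0.69. None of 6 measured checkpoint genes passed edgeR's threshold. Without MYC replicate 5 the fit called 72 genes, all 15 above among them. The median log2 fold change of the cytotoxic genes was then 1.65, with 4 of 9 higher. Without MYC replicate 4 it called 23 genes with 12 of the 15, and without SHH replicate 1 it called 77 genes with all 15. Whether the difference between classes depended on subgroup could be asked only with SHH replicate 1 as the sole SHH animal. A lack of calls there does not show an equal difference. Without MYC replicate 5 that question could not be fitted, because only 2 animals were left. In edgeR's test of whether the difference between classes depended on subgroup, 0 of 4785 genes passed (0%, with 275 at an unadjusted p under 0.05), and DESeq2 called 1, Ccl5.

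**Figure D3:**
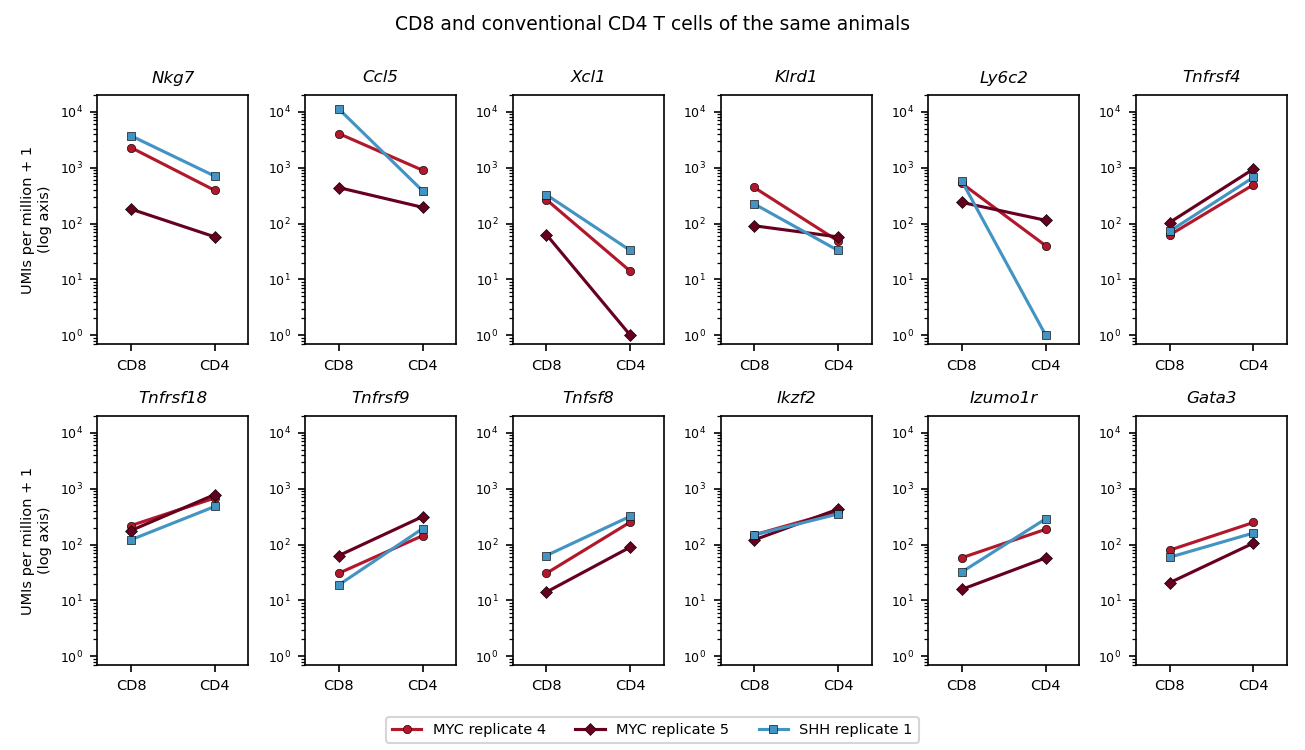
CPM plus 1 on a log axis in summed CD8 and conventional CD4 T cells of the 3 animals with 20 or more cells of both; lines join the sums of 1 animal. All 3 lines fall from CD8 to CD4 for Nkg7, Ccl5, Xcl1, Klrd1 and Ly6c2, and rise for the 7 other genes.

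The bases upstream of the start site of 3 of these genes are shown because Nkg7 and Xcl1 were both higher in CD8 T cells and Tnfrsf4 had the largest fall. Each is the 250 bases before the RefSeq gene start on GRCm38.p6, the build underlying mm10. Capitals mark matches on either strand to the RUNX core TGTGGT or TGCGGT and to the T-box letters GGTGTGA, and the 2 motifs did not overlap. RUNX and T-box factors are known regulators of CD8 T cell genes. The Nkg7 window is chr7:43436888-43437137, plus strand, the Xcl1 window chr1:164935523-164935772, minus strand, and the Tnfrsf4 window chr4:156013445-156013694, plus strand. The annotation used for the distance between Sdf4 and Tnfrsf4 places some starts elsewhere. It starts Nkg7 at base 43437073, so the T-box match of the Nkg7 window lies inside the gene there. It starts Tnfrsf4 at 156013843, beyond the window, and ends Sdf4 at 156013610, within the Tnfrsf4 window.
Nkg7: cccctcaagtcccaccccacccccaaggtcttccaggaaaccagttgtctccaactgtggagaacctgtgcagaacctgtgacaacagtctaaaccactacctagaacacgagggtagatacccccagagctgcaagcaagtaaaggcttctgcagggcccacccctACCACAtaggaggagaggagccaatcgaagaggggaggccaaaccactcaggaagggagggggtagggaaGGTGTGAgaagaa
Xcl1: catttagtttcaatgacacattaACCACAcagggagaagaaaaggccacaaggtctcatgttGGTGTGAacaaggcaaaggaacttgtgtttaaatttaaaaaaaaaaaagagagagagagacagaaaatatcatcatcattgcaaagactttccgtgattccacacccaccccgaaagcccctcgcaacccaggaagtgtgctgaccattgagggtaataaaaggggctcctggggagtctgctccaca
Tnfrsf4: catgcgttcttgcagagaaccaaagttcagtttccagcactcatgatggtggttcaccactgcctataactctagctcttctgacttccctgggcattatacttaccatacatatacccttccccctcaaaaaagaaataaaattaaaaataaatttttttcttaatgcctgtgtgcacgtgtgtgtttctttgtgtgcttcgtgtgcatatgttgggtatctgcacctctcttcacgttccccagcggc
The Nkg7 and Xcl1 windows each held 1 RUNX core and 1 T-box match, and the Tnfrsf4 window held neither. The same letters were searched in the windows of 6 other genes that passed the test, in the first entry where the table had 2. Ccl5, Klrd1 and Ikzf2 were among the passing genes whose windows were not searched. A RUNX core was found in that of Ly6c2, which was higher in CD8 T cells, and in that of Izumo1r, which was lower. Neither of those windows held a T-box match. Neither motif was found in those of Tnfrsf18, Tnfrsf9, Gata3 and Tnfsf8. Of 27025 such windows in the table, 18.7% held a RUNX core and 3.31% a T-box match. A match describes letters only.

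Natural killer cells share much of the cytotoxic programme, and the comparison with them asked which genes still differed. They were Cd3- and Cd8-negative cells with an Nkg7 UMI and a UMI of Ncr1, Klrb1c or Klre1. Only MYC replicate 4 and SHH replicate 1 had 10 or more of both classes, with 47 and 12 natural killer cells, so the test rests on 2 animals, and the CD8 sums are those used against CD4. edgeR with the animal as a block called 75 of 2110 genes (3.55%), 19 higher in CD8 T cells (0.9%) and 56 lower (2.65%). DESeq2 called 14 and edgeR without the block 9. MYC replicate 5 did not enter. The direction was the same in both animals for 55.4% of all genes tested.

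Gzma was the granzyme with the widest gap, at 142 CPM against 3981 in MYC replicate 4 and 273 against 1387 in SHH replicate 1 (log2 fold change -3.73 ± 0.41, edgeR adjusted p = 1.20e-16, 9.59e-17 to 0.0428 over the alternatives). Fcer1g and Tyrobp, adaptor chains of activating receptors, were lower, with log2 fold changes of -3.13 ± 0.35 and -2.56 ± 0.36 (edgeR adjusted p = 2.94e-16 and 2.87e-10). Both are also myeloid genes. Klrk1, the activating receptor NKG2D, had a log2 fold change of -3.50 ± 0.43. Xcl1, though above the CD4 level, was lower than in natural killer cells, with a log2 fold change of -2.03 ± 0.35. Xcl1 lay at 266 CPM against 1238 in MYC replicate 4 and 326 against 1295 in SHH replicate 1. The inhibitory receptor genes Klra4 and Klra8 had 0 UMIs in the CD8 T cells of both animals and 306 and 319 CPM in the natural killer cells of MYC replicate 4. The Klra genes are closely related copies, so reads may have been split between them.

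In the other direction, Ifi27l2a, an interferon-responsive gene, was higher in CD8 T cells by 3.46 ± 0.49, at 1972 CPM against 204 in MYC replicate 4 and 944 against 0 in SHH replicate 1 (edgeR adjusted p = 2.11e-10, 5.27e-11 to 0.148 over the alternatives). Cxcr6 was higher by 2.75 ± 0.68 (adjusted p = 0.00263), Ly6c2 by 2.24 ± 0.48 (adjusted p = 2.22e-04) and Il7r, the interleukin 7 receptor, by 2.04 ± 0.58 (adjusted p = 0.0159). Dapl1 and Themis, a T cell development gene, had 0 UMIs in the natural killer cells of both animals and 182 and 86.6 CPM in the CD8 T cells of MYC replicate 4. By list, 6 of 7 measured natural killer receptor genes were lower (median log2 fold change -2.72 against 0.08 over all genes), 5 of 10 cytotoxic genes were lower (median -1.21), and 3 of 12 interferon genes were higher (median 0.60). The natural killer cells were picked by Nkg7 and by Ncr1, Klrb1c or Klre1, which the CD8 gate did not ask for. These genes were left out of the counts. The natural killer receptor and cytotoxic lists are still no independent check, and the part of the gate in them was not tested.

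The subgroups were compared over 3 MYC animals and 2 SHH animals with 20 or more CD8 T cells, which left out the 16 cells of MYC replicate 1. No gene passed: edgeR called 0 of 3266 genes (0%), with 112 at an unadjusted p under 0.05, and DESeq2 called 13. Without MYC replicate 5 edgeR again called 0, and without SHH replicate 1 it called 2. The 2 groups did not overlap for 19.7% of genes, and MYC lay above SHH for 5.73%. With so few animals, differences smaller than the spread between them were not detectable.

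Among the 10 genes with the smallest p were 3 with 0 UMIs in the 3 MYC animals. Fabp7, a fatty acid binding protein of neural progenitors, lay at 201 CPM in SHH replicate 1 and 2250.1 in SHH replicate 2. Ly6h lay at 157 and 194 CPM, and Sox11, a neural transcription factor, at 62.6 and 50.3 CPM. Their edgeR adjusted p-values were 0.192, 0.108 and 0.619. These are genes of neural or tumour cells, and the 6 listed SHH tumour markers summed to 326 and 2358 CPM in the CD8 T cells of SHH replicates 1 and 2. In the 3 MYC animals 5 or all 6 of them were at 0. The part of tumour RNA in these results was not tested. Ifitm1, an interferon-induced membrane protein, had 0 UMIs in both SHH animals and 123, 52.8 and 792 CPM in the MYC animals. S100a4, a calcium-binding protein of activated T cells, lay at 348, 127 and 504 CPM in MYC replicates 2 and 3, 4 and 5, and at 49.2 and 28.8 CPM in SHH replicates 1 and 2 (edgeR adjusted p = 0.607, 2.80e-04 to 1 over the alternatives).

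Interferon-responsive genes had the highest median of the lists with 5 or more members measured, though none of their members passed the test. Of 16 listed genes 14 were measured, 13 had a log2 fold change above 0 in MYC, and the median was 1.37 against -0.00 over all genes. Without MYC replicate 5 the median was 0.44, with 10 of 11 above 0, and no longer the highest. Higher medians were then those of the natural killer receptor (0.87), naive and memory (0.70), costimulation (0.49) and MHC class I genes (0.47). Ifi27l2a lay at 2858 CPM in MYC replicate 1, 695 in MYC replicates 2 and 3, 1972 in MYC replicate 4, 6896 in MYC replicate 5, 944 in SHH replicate 1 and 992 in SHH replicate 2. Isg15, a ubiquitin-like modifier, lay at 866 CPM in MYC replicate 1, 269 in MYC replicates 2 and 3, 431 in MYC replicate 4, 1386 in MYC replicate 5, 349 in SHH replicate 1 and 288 in SHH replicate 2. For both genes MYC replicate 5 was highest and MYC replicate 1, which was not in the test, came next, while MYC replicates 2 and 3 lay below both SHH animals. The log2 differences were 1.84 ± 0.83 and 1.25 ± 0.69 (SE; edgeR adjusted p = 1 for both).

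**Figure D4:**
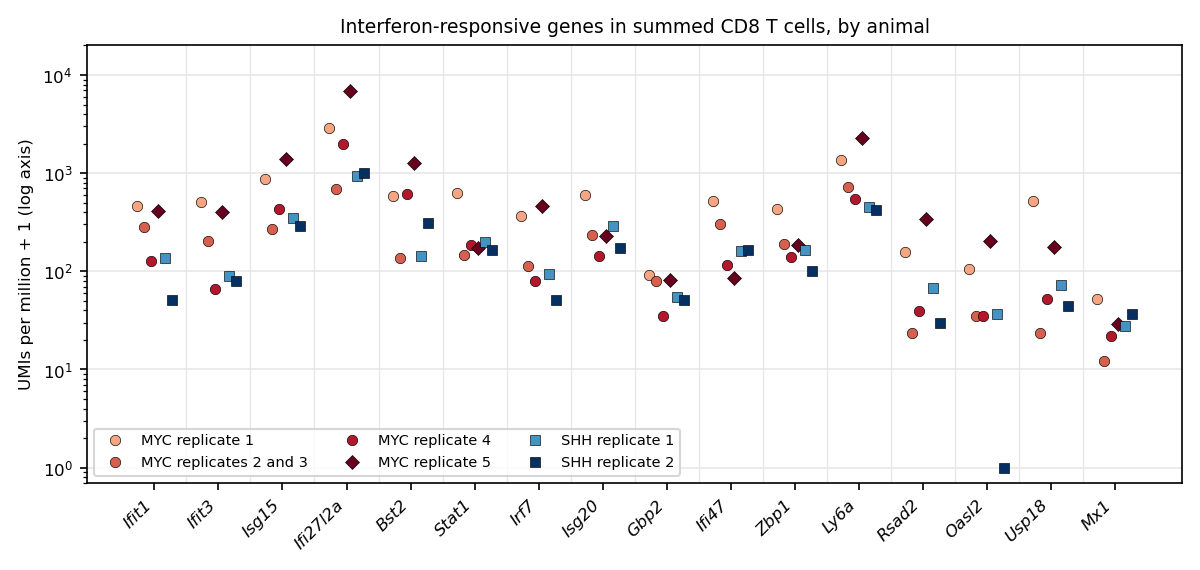
Levels of the 16 listed interferon-responsive genes in summed CD8 T cells as CPM plus 1 on a log axis, 1 point per animal, circles and diamonds for MYC and squares for SHH. Ifi27l2a is highest in MYC replicate 5 at 6896 and lowest in MYC replicates 2 and 3 at 695.

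None of the effector genes passed the test between subgroups. The log2 differences, MYC against SHH, were -0.99 ± 0.88 for Ccl5, -0.76 ± 0.87 for Nkg7, -0.27 ± 1.19 for Gzmk and -0.77 ± 0.62 for Cxcr6 (SE; edgeR adjusted p = 1 for all 4). With MYC replicate 5 left out they were -0.42 ± 0.40, -0.18 ± 0.33, 0.40 ± 0.66 and -0.38 ± 0.55 in the same order (SE; edgeR adjusted p = 0.965 to 0.986), so that the value of Gzmk changed sign. Of 12 measured cytotoxic genes 6 were above and 6 below 0, with a median of 0.09. All 3 measured cytokine genes and 3 of 4 chemokines were below 0 in MYC. Of 12 dissociation stress genes, 10 were above 0, with a median of 0.65. In the fit without MYC replicate 5, 6 of 10 cytotoxic genes were above 0 with a median of 0.34, the 3 cytokine genes and 3 of 4 chemokines were again below 0, and 5 of 9 dissociation stress genes were above 0 with a median of 0.08. No member of any of these lists passed.

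Among the CD8 T cells themselves, cells with a Cxcr6 UMI were compared with cells without one in the same animals, a split chosen after the number of cells with each gene had been seen. It covered MYC replicate 4 (61 cells with, 208 without), MYC replicate 5 (42 and 68), SHH replicate 1 (67 and 99) and SHH replicate 2 (30 and 35). Median depth was 1266 against 1316, 4086 against 5391, 1259 against 1190 and 1476 against 1866 UMIs. edgeR with the animal as a block called 28 of 2180 genes (1.28%), 12 higher (0.55%) and 16 lower (0.734%) in cells with Cxcr6. Without the block it called 0.

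Tmem176b and Tmem176a, a pair of membrane channel genes, were higher in the cells with Cxcr6 by 1.38 ± 0.22 and 1.32 ± 0.22 on the log2 scale in 4 of 4 animals, where 16.1% of all genes had the same direction in all 4 (SE; edgeR adjusted p = 0.00128 and 0.00235). The adjusted p of Tmem176b was 1.04e-05 to 1 over the alternatives, and it passed in 11 of 12 fits. Tmem176b lay at 168 CPM against 35.5 in MYC replicate 4, 384 against 183 in MYC replicate 5, 314 against 145 in SHH replicate 1 and 833 against 235 in SHH replicate 2. The 2 genes overlap by 578 bases in the annotation, and how reads in that stretch were assigned is not given in the sources used here. Id2, a repressor of E-protein transcription factors in effector and resident T cells, was higher at 559.9 CPM against 273 in MYC replicate 4, 639 against 476 in MYC replicate 5, 715 against 381 in SHH replicate 1 and 962 against 412 in SHH replicate 2, a log2 difference of 0.79 ± 0.17 (edgeR adjusted p = 0.0164).

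Dapl1, a gene known from quiescent T cells, had the largest fall among called genes that were lower in 4 of 4 animals. It lay at 56 CPM against 219 in MYC replicate 4, 10.2 against 38.6 in MYC replicate 5, 32.5 against 213 in SHH replicate 1 and 18.5 against 470.3 in SHH replicate 2. The log2 difference was -2.66 ± 0.36 (edgeR adjusted p = 1.51e-04, 1.90e-10 to 0.033 over the alternatives), and it passed in 11 of 11 fits. Furin, a proprotein-cleaving protease, and Sepp1, a selenium carrier protein, were higher by 1.88 ± 0.31 and 1.59 ± 0.31 in 4 of 4 animals (edgeR adjusted p = 0.0021 and 0.00747). The surface proteins Thy1 and Cd52 were higher by 0.73 ± 0.18 and 0.43 ± 0.10 (edgeR adjusted p = 0.0407 and 0.0196), and passed in 3 of 12 and 2 of 12 fits. No measured chemokine, checkpoint or cytotoxic gene passed. All 9 cytotoxic genes lay above 0, with a median of 0.38 against -0.02 over all genes.

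Genes of other cells were also lower in cells with Cxcr6. They included the MHC class II genes H2-Aa (-1.55 ± 0.32), H2-Ab1 and H2-Eb1, each lower in 3 of 4 animals, the myeloid genes Cst3 (-0.94 ± 0.20) and Tyrobp (-0.93 ± 0.22), and Timp1 and Fabp7 of the tumour lists, given as log2 differences ± SE. Of the macrophage list 6 of 7 measured genes were below 0, with a median of -0.63. Of the 7 measured without MYC replicate 5, 3 were above and 4 below 0, with a median of -0.53. The part of such RNA in the split was not tested. Without MYC replicate 5 the fit called 8 genes, 6 of them among the 28.

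**Figure D5:**
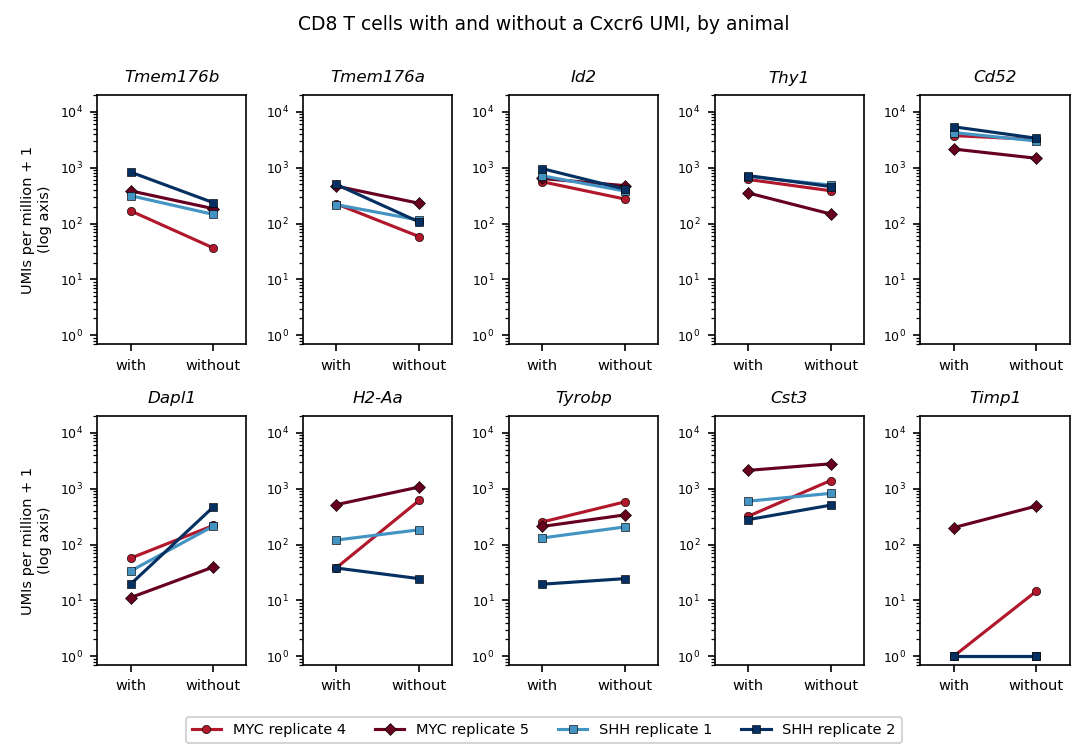
CPM plus 1 on a log axis in summed CD8 T cells with and without a Cxcr6 UMI; lines join the 2 sums of each of 4 animals. All 4 lines are higher with Cxcr6 for Tmem176b, Tmem176a and Id2 and lower for Dapl1.

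Cells with a Pdcd1 UMI were compared with those without in the 4 animals with 10 or more of each. edgeR with the animal as a block called 7 of 1953 genes (0.358%), all with a log2 fold change below 0 in cells with Pdcd1, and 0 without the block. The 7 were Ptn, Malat1, Meg3, Apod, Fcer1g, Fstl1 and Csrp2. Not all were lower in every animal: Apod was lower in 3 of 4, and Csrp2 was lower in 2 and higher in 1. Median depth with against without Pdcd1 was 1669.5 against 1283 in MYC replicate 4 and 4874 against 4664.5 in MYC replicate 5. It was 1416 against 1203.5 in SHH replicate 1 and 2168.5 against 1655 in SHH replicate 2. The part of depth was not tested. In the SHH animals the Pdcd1 shares could not be told from background, as given above. Malat1, a nuclear long non-coding RNA, had a log2 fold change of -0.66 ± 0.09 (SE; edgeR adjusted p = 1.65e-04, 7.83e-18 to 0.997 over the alternatives). Without MYC replicate 5 edgeR called 0, with 72 at an unadjusted p under 0.05. DESeq2 called 1 gene, which was not among the 7.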

How the data were processed

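UMI counts per gene and cell from 7 libraries (10x Chromium 3′) were deposited by the authors as whole-number tables. The submitters' processing notes name Cell Ranger 2.0.2 and the build mm10. Per the labels' protocols living cells were sorted after lysis of red blood cells. The counting of intronic or multimapping reads is not given in the sources used here. Doublets were marked by the highest Scrublet scores (scanpy 1.11.5), up to a number preset by library size, in libraries of 200 or more kept cells. They were kept in the main values. The members and gene lists were chosen with earlier results of these data known.

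Members were gated on raw UMIs and summed per animal, with MYC replicates 2 and 3 as 1 animal because their titles share a number. Levels are UMIs of a gene per 1000000 UMIs in the sum (CPM). Sums of 20 or more cells entered edgeR's quasi-likelihood test (edgeR 4.0.16, R 4.3.3, TMM, filterByExpr, Benjamini-Hochberg over all genes tested). DESeq2 1.42.0 was an alternative. At 20 cells the natural killer and Pdcd1 comparisons had too few animals, so sums of 10 or more cells are reported. Comparisons within animals carried the animal as a block: the pairing rests on both sums coming from the same animal. Shares were tested by exact permutation over animals (Python 3.11.15, scipy 1.17.1). P-values between subgroups measure the spread between animals. P-values within animals measure the spread of the paired differences, since the block removes that between animals. These fits had 1 (natural killer cells) to 3 residual degrees of freedom, the sums left over after the fitted terms. They estimated the spread of each gene with the help of all genes. Confidence intervals and 3-count floors cover counting error only. Depth per library was 33349 to 609668 UMIs in CD8 T cells. Shares described as thinned were taken after thinning each cell to 1000 UMIs, which left 601 of 661 members. Other shares are over all members. The test scripts were tested on simulated data.

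Named genes were the 10 largest changes each way among genes past the threshold with a mean log2 CPM of 5 or more that moved the same way in every animal, or the 10 smallest p-values where fewer than 5 passed. Other called genes named in the text were chosen after their values were seen. Trac, Trbc1, Trbc2, Trdc and Igkc were not analysed here.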

Additional observations from a re-analysis of the deposited data

Results flagged for a closer look

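Gene levels and shares, 48 values in all, were compared over the 4 MYC animals. For 7 gene levels 1 animal lay far from the other 3, by Dixon's criterion on the gap to the nearest other animal at the 95% level. Chance alone flags about 1 in 20 such groups picked beforehand. The genes here were chosen with earlier results of these data known, so that rate cannot be applied to them. Several of the 7 come from the same cells. In MYC replicate 1, Gzmb lay at 1707 and Gzmc at 1073 CPM, from 16 cells, while the highest of the other MYC animals had 123 and 6.56. In MYC replicate 4, Tox lay at 116 CPM, and the next MYC animal had 25.9, though SHH replicate 2 had 101. In MYC replicate 5, Il22 lay at 153, Timp1 at 395, Cryab at 1273 and Sparc at 859 CPM. The next MYC animal had 0, 64.7, 38.8 and 27.5 CPM. MYC replicate 5 was also the library with the most kept cells, 15253, and the deepest CD8-gated cells. Its MYC tumour markers summed to 1131.8 CPM in the gated cells, with none of the 8 at 0, and the part of these in its values was not tested.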

How the results depend on the processing

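Of the counts and shares of the 9 comparisons, 51 values kept their direction and size, 29 moved and 2 reversed; the cause was not tested. With DESeq2 the number of genes called was 13 for MYC against SHH, 1 for the dependence of the CD8 against CD4 difference on subgroup, 14 against natural killer cells, 1 for the Pdcd1 split and 3 for the Cxcr6 split. With no filter on low counts these counts were 123, 10, 24, 31 and 53, and 49 against CD4. Against CD4 the count was 61 with doublets removed and 36 with cells thinned to 1000 UMIs, each over 2 animals rather than 3. For the Cxcr6 split it was 15 at 50 cells per sum, over 2 of the 4 animals, and 5 with thinned cells, over 3.

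Without the replicate block, which pairs the sums of an animal, the count was 0 against CD4, 9 against natural killer cells, 0 for Pdcd1 and 0 for Cxcr6. Tnfrsf4 then had an edgeR adjusted p of 0.0519 against CD4. Leaving out 1 animal gave 23 to 77 genes against CD4, 0 to 2 between subgroups, 0 to 25 for Pdcd1 (0 without MYC replicate 5, 25 without MYC replicate 4 and without SHH replicate 2) and 7 to 42 for Cxcr6 (7 without MYC replicate 4 and without SHH replicate 1, 8 without MYC replicate 5). The difference in share of kept cells ranged from -0.487 (without MYC replicate 4) to 3.22, that of CD8 among CD8 and CD4 from -13.2 to -3.69 and that of cycling cells from 0.835 to 3.91 percentage points. The cycling difference was -0.323 with cells thinned before gating.

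Requiring a Cd8b1 UMI, added after seeing the data, gave 19 genes against CD4 and 78 against natural killer cells. Fits at 50 cells per sum and with a stricter exclusion of macrophage RNA left 1 animal against CD4 and were not run, nor were the thinned and leave-one-out fits against natural killer cells. Low depth per CD4 and natural killer sum, 31281 and 10812 UMIs in SHH replicate 1, limits which genes could be tested.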
